A study of Mus musculus with 11 samples.

Results

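The Slc25 family of mitochondrial carriers was followed in haematopoietic stem cells (HSCs), the cells that give rise to all blood lineages, from newborn mouse liver. Members were all entries whose symbol begins with Slc25a. There were 69 transcripts of 47 genes among 33984 transcripts of 24064 genes in the gated files, and the same 47 genes were present among 23420 entries of the WT HSC files. Where a gene had several transcripts, the one with the highest average across the 7 gated libraries stood for it.

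Every library came from wild-type C57BL/6 mice at postnatal day 0. Liver cells were stained and sorted as lineage-negative, Sca1+, cKit+, CD150+ and CD48-, and 100 to 200 cells were pooled into each Smart-seq2 library, a full-length cDNA protocol for small inputs. FSC-A High (4 libraries) held HSCs with a high forward scatter area, a cytometer reading that rises with cell size. FSC-A Low (3 libraries) held HSCs with a low one, and for WT HSC (4 libraries) the labels name no scatter gate. Separate animals are not named for the replicates, so the spread behind each p-value is that between these samples and may be technical.

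Slc25 carriers are nuclear-encoded proteins that span, with few exceptions, the inner mitochondrial membrane and exchange small solutes between cytosol and matrix. The ADP/ATP carriers export ATP made by ATP synthase and bring ADP in, and the phosphate carrier supplies the phosphate for the same reaction. Other members move amino acids, citrate and other carboxylates, iron, glutathione, nucleotides and cofactors. Among them, mitoferrins bring in the iron and Slc25a38 the glycine that haem synthesis uses, so the family is best known in blood for its part in red cell formation.

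From the steps between low values, depth was estimated at 65.3 to 86.1 M reads for the FSC-A High libraries, at 70.0 to 98.9 M for those of FSC-A Low and at 21.3 to 30.9 M recovered reads for those of WT HSC. Spearman's rho over genes was 0.938 to 0.954 within FSC-A High, 0.920 to 0.927 within FSC-A Low and 0.862 to 0.890 for libraries of different gates. WT HSC 4 stood apart from the other WT HSC libraries, at 0.868 to 0.876 against 0.930 to 0.948 among the other three, and 15.25% of its reads fell in the ribosomal RNA entry Rn45s. All 10 HSC markers listed were measured, and their summed level was 272 to 339 RPKM in FSC-A High and 511 to 648 RPKM in FSC-A Low, with 6 of 10 lower in FSC-A High; in WT HSC they summed to 1782 to 2467 CPM. All 6 cell cycle genes listed were higher in FSC-A High, summing to 352 to 424 RPKM against 51.7 to 67.4 RPKM in FSC-A Low. Their part in the carrier differences was not tested. The summed level of the 7 hepatocyte markers was 14.6 to 27.9 RPKM in FSC-A High and 10.9 to 19.6 RPKM in FSC-A Low. For 7 macrophage markers it was 14.3 to 29.0 RPKM in FSC-A High and 10.2 to 16.1 RPKM in FSC-A Low, for 6 granulocyte markers 102 to 147 and 99.9 to 103 RPKM, for 7 megakaryocyte markers 75.3 to 110 and 71.2 to 92.7 RPKM, for 6 lymphoid markers, of which Cd3e, Cd3g and Ebf1 were at 0 in all 7 libraries, 18.0 to 56.3 and 18.6 to 32.1 RPKM, and for 6 endothelial markers 3.61 to 12.9 and 10.2 to 18.1 RPKM. Gp5 of the megakaryocyte list (log2 difference -1.98, limma adjusted p = 0.00163) and Pecam1 of the endothelial list (-1.52, 0.00901) were lower in FSC-A High. No other gene of the hepatocyte, macrophage, granulocyte, megakaryocyte, lymphoid and endothelial lists passed at an adjusted p below 0.05. In such pools, fewer cells of a type and less RNA per cell cannot be told apart.

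The carriers moved in both directions with forward scatter. Levels are relative to the RNA of each library, and RNA per cell was not measured. By this measure FSC-A High HSCs had more of the ADP/ATP carrier Slc25a5 and the phosphate carrier Slc25a3. They had less of the citrate carrier Slc25a1, the aspartate/glutamate carrier Slc25a12, the ornithine carrier Slc25a15 and the pyrimidine nucleotide carrier Slc25a33. Also lower were the glutathione carrier Slc25a39 and Slc25a45. The ATP-Mg/phosphate carrier Slc25a41 was called higher as well. It was listed at 0 in all 3 FSC-A Low libraries and entered the test through FSC-A High alone. Least steady were Slc25a3, Slc25a39 and Slc25a41, which passed in 15 of 20, 8 of 20 and 7 of 19 alternative settings. Of the 47 genes, 38 passed the filter of at least 1 RPKM in at least 3 libraries and were tested with limma on log2(RPKM + 1). At a Benjamini-Hochberg adjusted p below 0.05 over all genes, FSC-A High had 3 carriers higher and 6 lower than FSC-A Low, and 29 did not pass. With library totals as the scale the split was 1 higher and 8 lower, and that of all genes was 978 and 2272 in place of 1657 and 1245. The 9 called members are 23.7% of those tested, against 27.3% of the 10619 genes tested. The higher ones are 7.89% against 15.6% of all genes, and the lower ones 15.8% against 11.7%. The median log2 difference was -0.18 over the 38 carriers and -0.04 over all genes tested. That of the carriers was -0.089 without FSC-A High 3, and -0.047 after a trend over transcript length and GC content was taken out, against -0.015 over all genes. FSC-A High and FSC-A Low values lay apart, without overlap, for 14 of the 38 carriers (36.8%, against 34.9% of all genes), 4 with FSC-A High above and 10 with it below. Calls and non-overlapping groups were thus about as frequent among the carriers as among all genes.

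**Figure D1:**
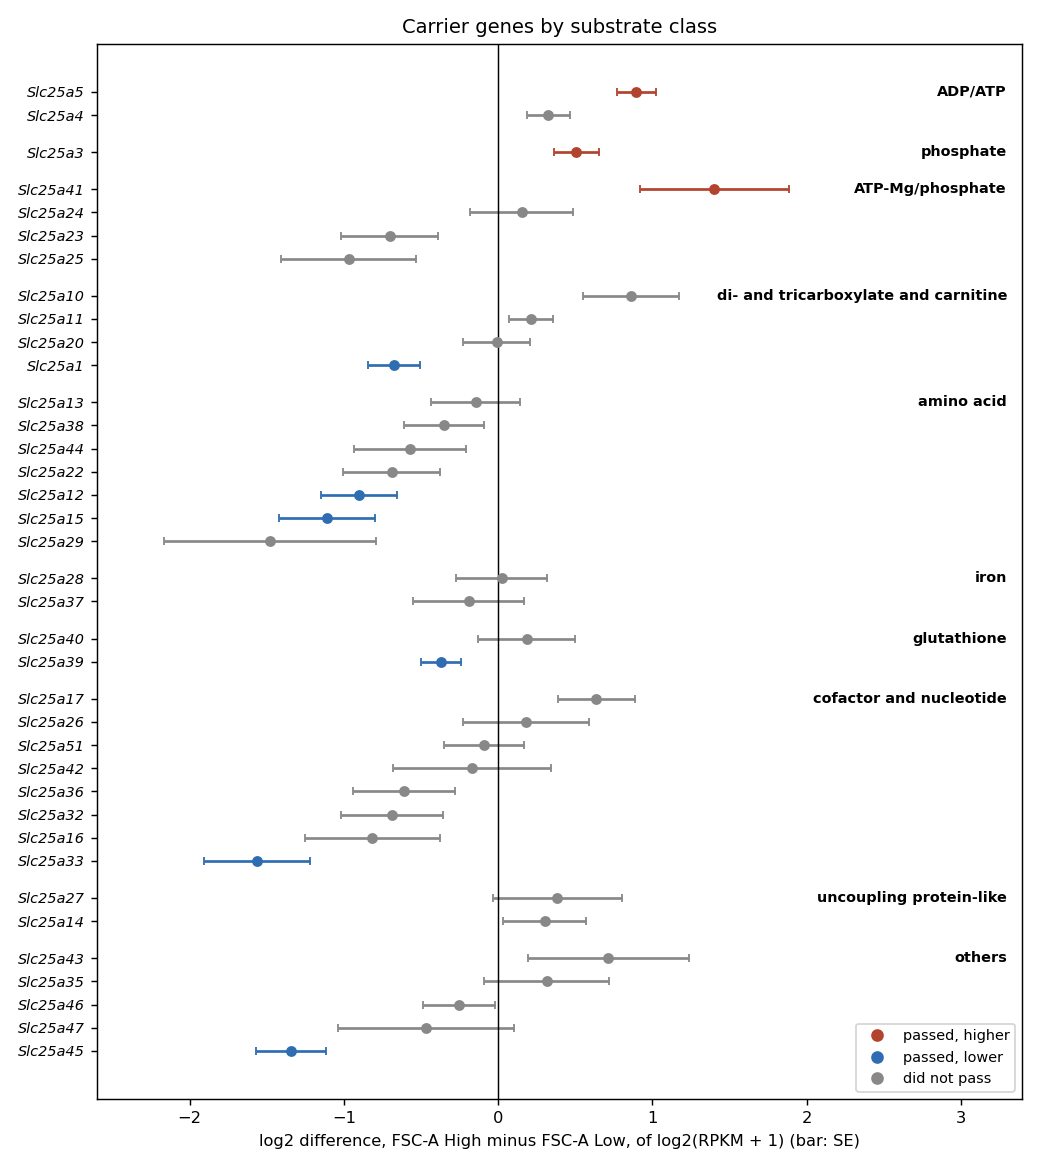
Log2 differences, FSC-A High minus FSC-A Low, of log2(RPKM + 1) for 37 of the 38 carriers tested (x axis), grouped by substrate class, with bars for the standard error from limma. The 7 amino acid carriers all lie left of 0, while Slc25a5 and Slc25a3 lie to the right with short bars.

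Promoters of 4 called members are shown to put sequence beside the values: Slc25a5 and Slc25a3, which were higher without overlap of the groups, and Slc25a33 and Slc25a45, which had the lowest log2 differences among the carriers called lower. Each line gives, 5′ to 3′ on the gene's strand, the 250 bases before the start that the promoter table uses (RefSeq, GRCm38.p6). That start lies inside the gene span given below for a pair of them, so that the last 79 bases for Slc25a3 and the last 21 for Slc25a45 are within the span. Capitals mark matches on either strand to the GC box GGGCGG, the CCAAT box, the E-box CACGTG and the letters TGACG of a cAMP response element.
Slc25a5 (chrX:36795347-36795596, plus strand): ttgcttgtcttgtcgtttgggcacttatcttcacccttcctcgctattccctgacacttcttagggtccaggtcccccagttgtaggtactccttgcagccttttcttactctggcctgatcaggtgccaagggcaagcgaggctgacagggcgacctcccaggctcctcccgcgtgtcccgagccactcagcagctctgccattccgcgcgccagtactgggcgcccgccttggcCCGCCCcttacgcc
Slc25a3 (chr10:91123968-91124217, minus strand): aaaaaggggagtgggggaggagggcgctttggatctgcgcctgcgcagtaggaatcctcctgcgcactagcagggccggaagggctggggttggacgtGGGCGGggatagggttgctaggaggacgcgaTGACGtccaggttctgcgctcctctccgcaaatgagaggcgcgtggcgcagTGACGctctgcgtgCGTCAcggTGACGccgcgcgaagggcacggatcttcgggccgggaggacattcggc
Slc25a33 (chr4:149774268-149774517, minus strand): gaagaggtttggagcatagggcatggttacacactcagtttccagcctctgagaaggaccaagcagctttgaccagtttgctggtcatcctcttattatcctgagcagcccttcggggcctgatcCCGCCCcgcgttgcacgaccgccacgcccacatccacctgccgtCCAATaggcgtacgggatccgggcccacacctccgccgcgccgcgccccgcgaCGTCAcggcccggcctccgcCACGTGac
Slc25a45 (chr19:5877572-5877821, plus strand): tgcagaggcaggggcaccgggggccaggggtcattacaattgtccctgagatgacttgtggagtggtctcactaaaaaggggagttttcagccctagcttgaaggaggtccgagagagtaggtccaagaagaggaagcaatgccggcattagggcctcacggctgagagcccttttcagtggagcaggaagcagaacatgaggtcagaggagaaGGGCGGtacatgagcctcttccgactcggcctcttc
Each of the 4 windows held 1 GC box. That of Slc25a3 held 4 matches to TGACG, 3 of them in the bases within the gene span, and that of Slc25a33 held 1 match to each of the 4 motifs. Promoters of 36 members were in the table, with 46 start sites. GC boxes stood in 69.6% of them against 32.7% of 32851 promoters of the same length, CCAAT in 45.7% against 33.8%, TGACG in 23.9% against 17.8% and CACGTG in 17.4% against 6.02%. Several start sites of 1 gene count separately, and the promoters set beside them were not matched for GC content or expression level. The 4 windows shown are 56.4 to 66.4% GC. Such matches describe letters and not binding.

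Exchange of ADP for ATP was the class with the highest level. Slc25a5, the ADP/ATP carrier of dividing tissues (chromosome X, 36795597 to 36798808 on GRCm38, the span of the gene), had 475, 598, 587 and 639 RPKM in FSC-A High and 292, 328 and 300 RPKM in FSC-A Low. All 4 FSC-A High libraries lay above all FSC-A Low libraries, at means of 575 ± 69.9 and 307 ± 18.5 RPKM (SD, n = 4 and 3). The log2 difference was 0.90 (SE 0.13, limma adjusted p = 2.82e-04), which became 0.58 (adjusted p = 0.00231) with library totals as the scale and 0.40 (0.0227) after a trend over transcript length and GC content was taken out. With a trend over expression level removed it was 0.30 and did not pass (0.0622), the only one of 20 alternatives in which it did not, over which the adjusted p ran from 1.05e-04 to 0.0622. A pseudogene, Slc25a5-ps, is annotated, and how reads that match both were counted is not given in the sources used here.

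Slc25a4, the ADP/ATP carrier best known from heart and skeletal muscle (chromosome 8, 46207168 to 46211062), had 328, 363, 322 and 279 RPKM in FSC-A High against 223, 291 and 260 RPKM in FSC-A Low. The groups overlapped in 1 library each, FSC-A High 4 and FSC-A Low 2. The log2 difference was 0.33 (SE 0.14, limma adjusted p = 0.0939) and did not pass. Without FSC-A High 4 it reached the threshold (0.40, adjusted p = 0.04999), and over 20 alternatives the adjusted p ran from 0.0264 to 0.941. Slc25a31, the ADP/ATP carrier of germ cells, was listed at 0 in all 4 FSC-A High libraries and at 0, 0.208 and 0.178 RPKM in FSC-A Low, and was not tested. The 3 genes together summed to 898 ± 67.0 RPKM in FSC-A High and 565 ± 51.9 RPKM in FSC-A Low.

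The phosphate carrier Slc25a3 (chromosome 10, 91116574 to 91124046) had 185, 177, 220 and 198 RPKM in FSC-A High and 114, 149 and 150 RPKM in FSC-A Low. The groups did not overlap, at 195 ± 18.4 and 138 ± 20.5 RPKM. The log2 difference was 0.51 (SE 0.15, limma adjusted p = 0.0211). It did not pass with library totals as the scale (0.19, adjusted p = 0.302), after the trend over length and GC content was taken out (0.19, 0.411), with the expression level trend removed (0.06, 0.781), without FSC-A High 3 (0.45, 0.0737) or without FSC-A Low 1 (0.38, 0.0940); over 20 alternatives the adjusted p ran from 0.0142 to 0.781. A small nucleolar RNA, Gm24119, lies within the span of the gene.

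Carriers of ATP-Mg and phosphate, which adjust the adenine nucleotide content of the matrix, were low. Slc25a24 had 17.1, 6.10, 7.56 and 7.18 RPKM in FSC-A High and 7.66, 7.99 and 7.63 RPKM in FSC-A Low, so that FSC-A High 1 alone stood above the rest (log2 difference 0.15, limma adjusted p = 0.772). Slc25a25 had 7.29, 2.96, 4.57 and 3.71 RPKM in FSC-A High against 18.6, 11.2 and 3.98 RPKM in FSC-A Low, where FSC-A Low 3 lay among the FSC-A High values (-0.97, SE 0.44, adjusted p = 0.118). Without that library the log2 difference was -1.52 and passed (0.0136), the only one of 20 alternatives in which it did, with adjusted p up to 0.420. Slc25a23 did not overlap between groups, at 0.236 to 0.994 RPKM in FSC-A High and 1.30 to 1.82 RPKM in FSC-A Low, and did not pass (-0.70, adjusted p = 0.118).

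Slc25a41 of the same class was called higher, on values that are low and uneven. It was listed at 0, 1.37, 3.14 and 3.97 RPKM in FSC-A High and at 0 in all 3 FSC-A Low libraries, so it entered the test through FSC-A High alone and FSC-A High 1 is level with FSC-A Low. The log2 difference of 1.40 (SE 0.48, limma adjusted p = 0.0470) passed in 7 of 19 alternatives, with adjusted p from 0.00424 to 0.211. Leaving out FSC-A High 2 (1.45, adjusted p = 0.0775), FSC-A High 3 (1.19, 0.124), FSC-A High 4 (1.098, 0.123) or FSC-A Low 1, 2 or 3 (1.40 each, 0.0951, 0.0899 and 0.0975) ended the call.

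**Figure D2:**
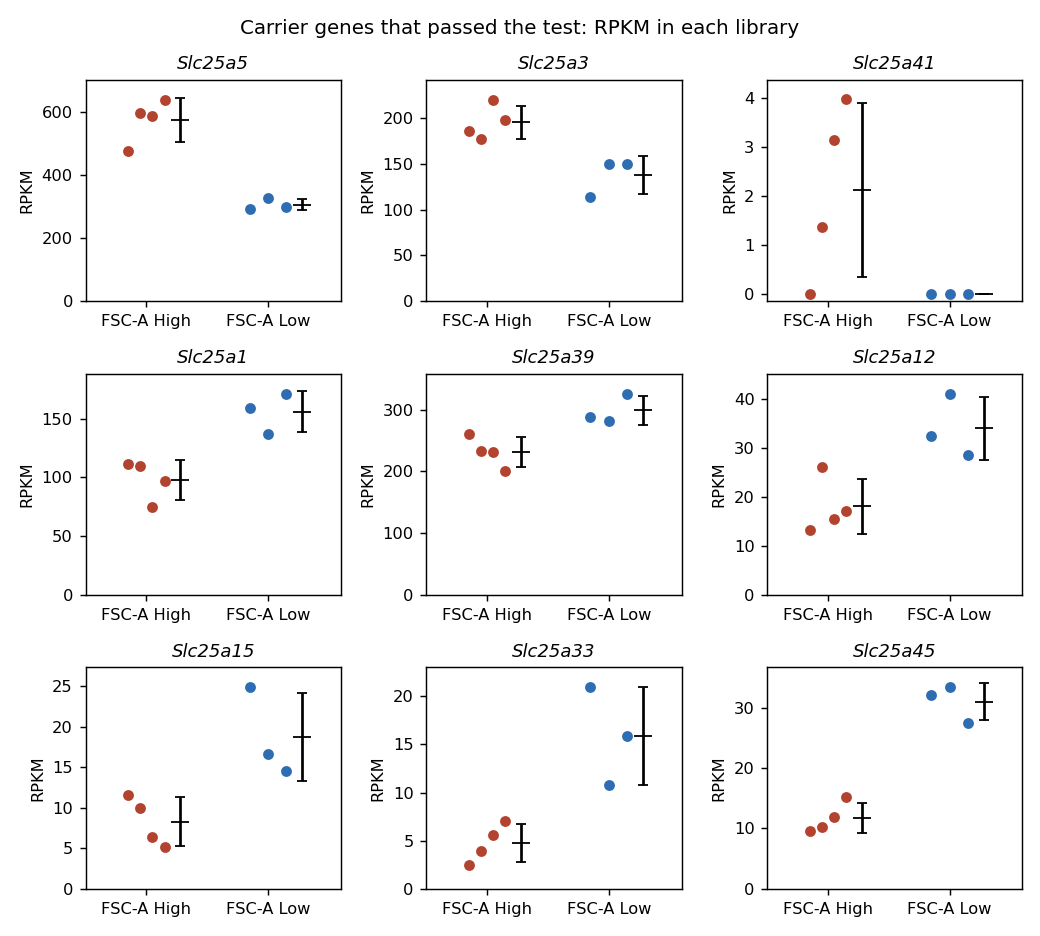
RPKM (y axis) of the 9 carriers that passed the test, 1 point per library, with mean and SD beside the points. The groups lie apart for 8 genes, and for Slc25a41 FSC-A High 1 sits at 0 with all FSC-A Low libraries.

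Carriers of di- and tricarboxylates divided. Slc25a1, which exports citrate, the source of cytosolic acetyl-CoA for lipid synthesis (chromosome 16, 17925211 to 17928219), had 111, 110, 74.5 and 96.7 RPKM in FSC-A High against 159, 137 and 171 RPKM in FSC-A Low. Every FSC-A High library lay below every FSC-A Low library, at 98.0 ± 17.003 and 156 ± 17.3 RPKM. The log2 difference was -0.67 (SE 0.17, limma adjusted p = 0.00982), and it passed in all 20 alternatives, with values from -1.06 to -0.55. Slc25a11, the oxoglutarate/malate carrier of the malate-aspartate shuttle, had 93.9, 107, 90.9 and 102 RPKM in FSC-A High and 81.3, 91.9 and 81.2 RPKM in FSC-A Low, overlapping by a narrow margin (0.21, SE 0.14, adjusted p = 0.295), with a negative value in 3 of 20 alternatives. Slc25a10, the dicarboxylate carrier, stood at 8.83 to 13.1 RPKM in FSC-A High and at 3.32 to 7.46 RPKM in FSC-A Low without overlap, and just missed the threshold (0.86, SE 0.31, adjusted p = 0.0549). Slc25a20, which carries acylcarnitines for fatty acid oxidation, had 23.6, 28.3, 22.2 and 26.4 RPKM in FSC-A High and 22.5, 21.2 and 33.4 RPKM in FSC-A Low (-0.01, SE 0.22, adjusted p = 0.979). Its direction turned under the median ratio scaling (0.01), upper quartile scaling (0.04) and without some of the libraries. Slc25a21, the oxodicarboxylate carrier, was at 0 in all 7 libraries.

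All 7 amino acid carriers tested had negative log2 differences, with a median of -0.69, though that of Slc25a13 was 0.032 after the trend over length and GC content was taken out. Negative values were also found for 23 of all 38 carriers tested, and the median over all genes tested was -0.04. Of the 7, 2 passed, both lower. Of all genes, 27.3% were called either way and 11.7% lower, and 7 carriers are too few to set against these shares. Slc25a12, or aralar, which exchanges aspartate for glutamate in the malate-aspartate shuttle (chromosome 2, 71274270 to 71367781), had 13.2, 26.1, 15.6 and 17.2 RPKM in FSC-A High and 32.4, 41.0 and 28.4 RPKM in FSC-A Low. FSC-A High 2 came close to FSC-A Low 3 but the groups did not overlap (-0.90, SE 0.25, limma adjusted p = 0.0171). The difference did not pass without a filter (-0.90, adjusted p = 0.0581), after the trend over length and GC content was taken out (-0.55, 0.110) or without FSC-A Low 2 (-0.76, 0.0703), and over 20 alternatives the adjusted p ran from 0.00308 to 0.110. Its transcript is 6351 nt long, the longest of the 38 carriers tested.

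Slc25a15, the ornithine/citrulline carrier of the urea cycle (chromosome 8, 22375550 to 22398621), had 11.6, 9.91, 6.46 and 5.12 RPKM in FSC-A High and 24.8, 16.7 and 14.6 RPKM in FSC-A Low. The groups did not overlap, at 8.27 ± 3.00 and 18.7 ± 5.43 RPKM (-1.11, SE 0.31, limma adjusted p = 0.0182). It did not pass without a filter (-1.11, adjusted p = 0.0657), after the trend over length and GC content was taken out (-0.87, 0.0558), without FSC-A High 3 (-1.03, 0.0513) or without FSC-A Low 1 (-0.90, 0.0840), over a range of 0.00604 to 0.0840 in 20 alternatives.

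The other amino acid carriers did not pass. Slc25a13, or citrin, which exchanges the same amino acids as Slc25a12, had 12.4, 8.18, 6.01 and 7.97 RPKM in FSC-A High and 8.38, 11.3 and 8.62 RPKM in FSC-A Low, within overlapping ranges (-0.14, SE 0.29, limma adjusted p = 0.752). Slc25a38, the glycine carrier, stood at 6.03 to 8.78 RPKM in FSC-A High and 9.43 to 10.9 RPKM in FSC-A Low without overlap (-0.35, adjusted p = 0.347). The glutamate carrier Slc25a22 had a log2 difference of -0.69 (adjusted p = 0.122), the branched-chain amino acid carrier Slc25a44 one of -0.57 (0.271) and the basic amino acid carrier Slc25a29 one of -1.48 (0.130), the last on values from 0 to 2.08 RPKM in FSC-A High and 0.110 to 12.7 RPKM in FSC-A Low. The second ornithine carrier Slc25a2 and the second glutamate carrier Slc25a18 were at or near 0 and were not tested.

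The iron carriers showed no difference that could be detected. Slc25a28, or mitoferrin 2, the widely expressed form, had 11.1, 7.26, 8.69 and 8.78 RPKM in FSC-A High and 12.9, 7.82 and 6.45 RPKM in FSC-A Low (0.02, SE 0.29, limma adjusted p = 0.962). Slc25a37, or mitoferrin 1, the form of developing red cells, was lower in level, at 1.23, 1.71, 0.659 and 0.685 RPKM in FSC-A High and 2.40, 1.27 and 0.602 RPKM in FSC-A Low (-0.19, SE 0.36, adjusted p = 0.738). The groups overlapped for both, and the direction turned in 5 of 20 alternatives for Slc25a28 and in 2 of 19 for Slc25a37. Of the 10 erythroid markers listed, 9 were found. Their sum was 110 to 238 RPKM in FSC-A High and 74.3 to 105 RPKM in FSC-A Low, most of it the globin gene Hbb-bt, which was higher in FSC-A High (1.06, adjusted p = 0.0102), while Rhag was lower (-1.73, 0.00304).

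Of the glutathione carriers, Slc25a39 (chromosome 11, 102402969 to 102408675) was among the carriers of highest level, below Slc25a5 and Slc25a4 by group mean in FSC-A High and below Slc25a5 alone in FSC-A Low. It had 260, 233, 231 and 200 RPKM in FSC-A High and 289, 282 and 326 RPKM in FSC-A Low, without overlap (231 ± 24.4 and 299 ± 23.7 RPKM). The log2 difference was -0.37 (SE 0.13, limma adjusted p = 0.0486), close to the threshold. It passed in 8 of 20 alternatives, with adjusted p from 3.86e-04 to 0.168. Under median ratio (-0.35, 0.0810), TMM (-0.37, 0.0566) and upper quartile scaling (-0.33, 0.0973) it did not pass, and with library totals it did (-0.68, 0.00196). Leaving out FSC-A High 2 (-0.38, 0.0866), FSC-A High 3 (-0.37, 0.105), FSC-A High 4 (-0.31, 0.0928), FSC-A Low 1 (-0.39, 0.0827), FSC-A Low 2 (-0.41, 0.0703) or FSC-A Low 3 (-0.31, 0.168) ended the call. Its relative Slc25a40 was far lower, at 1.23, 0.768, 0.931 and 1.26 RPKM in FSC-A High and 1.12, 0.854 and 0.469 RPKM in FSC-A Low (0.18, SE 0.31, adjusted p = 0.703).

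Among nucleotide and cofactor carriers, 1 of 9 passed, where 27.3% of all genes were called either way and 11.7% lower. As a set, 9 carriers are too few to set against these shares. Slc25a33, which brings pyrimidine nucleotides into the matrix (chromosome 4, 149744036 to 149774267), had 2.53, 3.92, 5.64 and 7.07 RPKM in FSC-A High and 20.9, 10.8 and 15.9 RPKM in FSC-A Low. No FSC-A High library reached the lowest FSC-A Low library, and the means were 4.79 ± 1.98 and 15.8 ± 5.08 RPKM. The log2 difference was -1.56 (SE 0.34, limma adjusted p = 0.00505). It passed in all 20 alternatives, with values from -1.84 to -1.08 and adjusted p of at most 0.0337.

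Slc25a36, the other pyrimidine nucleotide carrier, had 3.05, 1.86, 1.99 and 2.93 RPKM in FSC-A High and 6.17, 3.36 and 3.54 RPKM in FSC-A Low, again without overlap, and did not pass (-0.61, SE 0.33, limma adjusted p = 0.189). Slc25a17, a carrier of peroxisomes that moves coenzyme A and related cofactors, had 42.1, 42.4, 45.9 and 82.0 RPKM in FSC-A High and 29.8, 42.1 and 27.0 RPKM in FSC-A Low. FSC-A High 4 stood far above the other libraries (0.64, SE 0.25, adjusted p = 0.0775); without that library the difference was 0.41 (0.174). After the trend over length and GC content was taken out it was 0.29 (0.464), and without FSC-A Low 2 it passed (0.82, 0.0462), the only one of 20 alternatives in which it did. The folate and FAD carrier Slc25a32 stood at 3.03 to 4.202 RPKM in FSC-A High and at 4.74 to 10.7 RPKM in FSC-A Low (-0.69, adjusted p = 0.140). Slc25a16 and Slc25a42 for coenzyme A, Slc25a26 for S-adenosylmethionine and Slc25a51, known in human cells as the NAD carrier, did not pass either and had log2 differences between -0.82 and 0.18 with adjusted p of at least 0.188.

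Slc25a45 (chromosome 19, 5877801 to 5885768) showed the most distinct fall by adjusted p. It had 9.64, 10.2, 11.9 and 15.3 RPKM in FSC-A High and 32.1, 33.3 and 27.5 RPKM in FSC-A Low, at means of 11.7 ± 2.53 and 31.0 ± 3.08 RPKM. The groups lay well apart, and the log2 difference was -1.34 (SE 0.23, limma adjusted p = 9.79e-04). It passed in all 20 alternatives, with values from -1.64 to -1.11 and adjusted p of at most 0.00633. Slc25a46, an outer membrane protein of mitochondrial dynamics, stood at 12.1 to 14.5 RPKM in FSC-A High and 12.7 to 19.2 RPKM in FSC-A Low (-0.25, adjusted p = 0.456). Of the carriers related to uncoupling proteins, Slc25a14 stood at 5.98 to 6.73 RPKM in FSC-A High and at 4.73 to 5.47 RPKM in FSC-A Low without overlap (0.30, adjusted p = 0.442), and Slc25a27 overlapped (0.38, 0.534). Slc25a35, Slc25a43 and Slc25a47 did not pass, with adjusted p of 0.610, 0.337 and 0.589. The 9 genes not tested in the main fit were Slc25a2, Slc25a18, Slc25a21, Slc25a30, Slc25a31, Slc25a34, Slc25a48, Slc25a53 and Slc25a54. They reached at most 1.81 RPKM (Slc25a53 in FSC-A High 4), and Slc25a21 and Slc25a54 were at 0 in all 7 gated libraries. Slc25a53 did not overlap between groups, at 0.886 to 1.81 RPKM in FSC-A High and 0.0734 to 0.658 RPKM in FSC-A Low.

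A few carriers made up most of the family's RNA. The 6 highest by the mean over the gated libraries (Slc25a5, Slc25a4, Slc25a39, Slc25a3, Slc25a1 and Slc25a11) took 85.3 ± 1.31% of the summed carrier RPKM in FSC-A High, against 79.2 ± 2.63% in FSC-A Low (SD, n = 4 and 3). The share of Slc25a5 alone was 27.8 to 35.2% in FSC-A High, against 19.1 to 20.1% in FSC-A Low. The share of the amino acid carriers was 2.78 to 3.69% in FSC-A High, against 4.92 to 7.52% in FSC-A Low, and that of the glutathione carriers 11.1 to 15.3% and 17.3 to 20.8%. The whole family summed to 1783 ± 60.3 RPKM in FSC-A High and 1568 ± 61.9 RPKM in FSC-A Low. As a share of all gene RPKM it was 0.420 ± 0.0102% in FSC-A High, against 0.459 ± 0.00742% in FSC-A Low, so the order of the groups depends on the scale. The log2 differences of the carriers also went with transcript length: Spearman's rho was -0.48 over the 38 carriers and -0.42 over 10460 genes tested with a known length, a description across genes that share libraries. Median lengths were 2165 nt for the carriers and 2544 nt for those genes.

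Pairs of carriers for the same substrate were compared within each library, as the difference of log2(RPKM + 1). Slc25a5 exceeded Slc25a4 by 0.53, 0.72, 0.86 and 1.19 in FSC-A High, against 0.39, 0.17 and 0.21 in FSC-A Low. The ratio was higher in every FSC-A High library, with a difference between groups of 0.57 (two-sided exact permutation p = 0.0571, 0.0686 adjusted over 6 pairs), and 0.27 (exact p = 0.2, adjusted 0.24) after the trend over length and GC content was taken out. Slc25a33 against Slc25a36 gave means of 0.69 ± 0.61 in FSC-A High, against 1.65 ± 0.23 in FSC-A Low, without overlap (difference -0.95, exact p = 0.0571, adjusted 0.0686). Slc25a13 against Slc25a12 gave -0.98 ± 0.63 in FSC-A High, against -1.74 ± 0.11 in FSC-A Low, without overlap (0.76, exact p = 0.0571, adjusted 0.0686). Slc25a39 against Slc25a40 gave 6.83 ± 0.25 in FSC-A High, against 7.38 ± 0.37 in FSC-A Low (-0.56, exact p = 0.0286, adjusted 0.0686), Slc25a24 against Slc25a25 gave 0.85 ± 0.21 and -0.28 ± 1.00 (1.12, exact p = 0.0571, adjusted 0.0686), and Slc25a37 against Slc25a28 gave -2.28 ± 0.45 and -2.07 ± 0.13 (-0.21, exact p = 0.571, adjusted 0.571). The difference became 0.46 for Slc25a13 against Slc25a12 without FSC-A High 1, 0.67 for Slc25a24 against Slc25a25 without FSC-A Low 1 and -0.35 for Slc25a39 against Slc25a40 without FSC-A Low 3. None of the 6 passed after adjustment, and 0.0286 is the smallest p that 4 against 3 libraries allow.

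**Figure D3:**
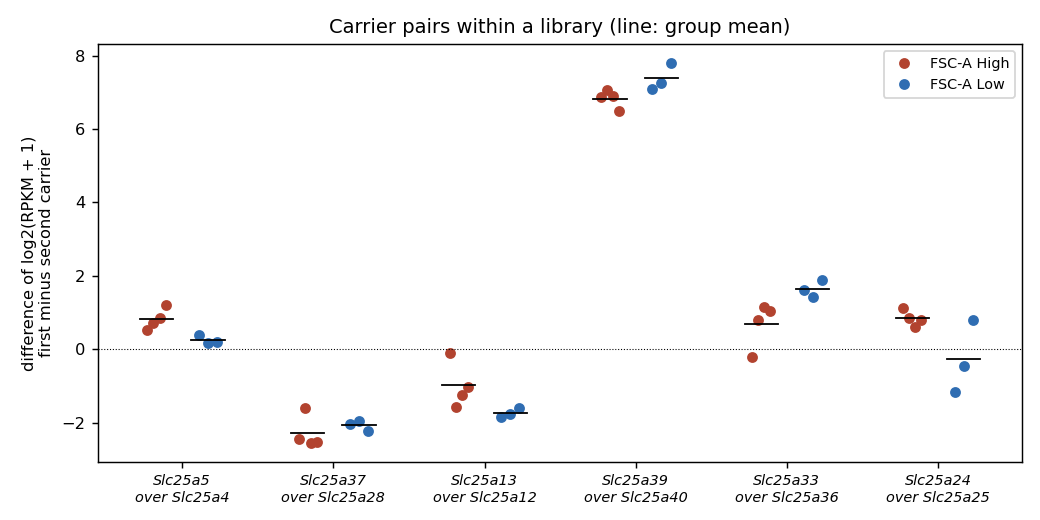
Difference of log2(RPKM + 1) between both carriers of a pair (y axis) in each library, FSC-A High left and FSC-A Low right within each pair, with a line at the group mean. The groups lie apart for Slc25a5 over Slc25a4, Slc25a13 over Slc25a12, Slc25a39 over Slc25a40 and Slc25a33 over Slc25a36.

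Other genes of the route into and across the mitochondrial membranes were mixed as well. Carriers enter the inner membrane through the Tim22 complex, and of 7 genes of that route 4 had higher and 2 had lower levels in FSC-A High, where 15.6% of all genes were called higher and 11.7% lower. Higher were Timm22, the channel subunit, at 21.9 ± 2.07 RPKM in FSC-A High and 10.4 ± 1.82 RPKM in FSC-A Low (log2 difference 1.02, limma adjusted p = 0.00505), the chaperone gene Timm10 (1.25, 0.00452), Timm10b (0.84, 0.00285) and Agk (0.75, 0.0184). Lower were Timm29 at 43.9 ± 22.2 RPKM in FSC-A High and 98.2 ± 19.7 RPKM in FSC-A Low (-1.23, 0.00636) and the carrier receptor gene Tomm70a at 23.1 ± 4.67 and 52.1 ± 15.2 RPKM (-1.13, 0.00365). Of 5 family members with other symbols, 3 were tested and none passed: Ucp2 (0.35, 0.241), Mtch1 (-0.15, 0.682) and Mtch2 (0.34, 0.216), at unadjusted p above 0.05 each, and Ucp1 and Ucp3 were at 0. Of 15 other transporters of the inner membrane, 5 passed, against 27.3% of all genes. Of these, 2 were higher, the pyruvate carrier subunit gene Mpc1 (0.84, 0.00744) and Tmem14c (1.06, 3.30e-04), and 3 were lower, Sfxn3 (-0.88, 0.0129), the calcium uptake regulator gene Micu2 (-1.22, 0.0115) and Abcb8 (-0.78, 0.0222). Of the 3 outer membrane channel genes, Vdac2 was higher (0.49, 0.0424) and the other two did not pass.

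The WT HSC libraries, with no scatter gate named, are given apart, as CPM of recovered reads per kilobase of the same transcript. Slc25a5 was again the highest, at 656, 924, 955 and 398 CPM per kb, followed by Slc25a3 at 531, 645, 795 and 297. Slc25a4 stood at 200, 236, 227 and 158 and Slc25a39 at 140, 161, 109 and 187 CPM per kb. Their means were 733 ± 261, 567 ± 210, 205 ± 34.9 and 149 ± 32.9 CPM per kb (SD, n = 4), and without WT HSC 4 those of Slc25a5 and Slc25a3 were 845 and 657. Both of the highest carriers were lowest in WT HSC 4. The ranges of Slc25a5 and Slc25a3 overlapped, as did those of Slc25a4 and Slc25a39, while every library of the first pair lay above every library of the second.

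Next came Slc25a11 at 124 ± 43.1, Slc25a1 at 115 ± 15.4 and the peroxisomal Slc25a17 at 93.4 ± 15.1 CPM per kb, whose spreads overlap. Slc25a45 stood at 43.5 ± 15.1, Slc25a12 at 20.3 ± 3.75, Slc25a28 at 8.46 ± 4.23, Slc25a15 at 4.52 ± 2.56, Slc25a37 at 3.63 ± 0.660 and Slc25a33 at 3.35 ± 2.64 CPM per kb. Slc25a33 had 190, 259, 190 and 0 reads, the 0 being in WT HSC 4, where 13 of the 47 carriers had no read against 5 to 7 in the other WT HSC libraries. Slc25a21 and Slc25a54 had no read in any WT HSC library, which at 3 counts allows up to 0.0971 to 0.141 CPM per library, for counting error only. Across the 47 carriers, the order of mean levels in WT HSC and over the gated libraries had a Spearman's rho of 0.92, a description across genes measured in different units.

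**Figure D4:**
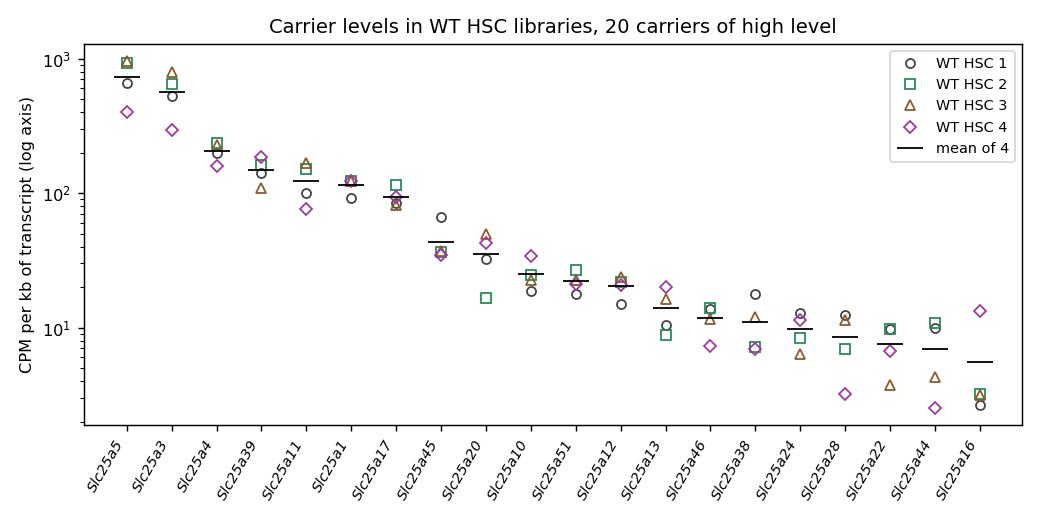
Levels of 20 carriers of high level in the 4 WT HSC libraries, in CPM per kb of transcript on a log axis, 1 symbol per library and a bar at the mean. Slc25a5 and Slc25a3 stand above all others, and WT HSC 4 is the lowest library for both.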

How the data were processed

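RNA from sorted HSCs was measured in 11 libraries, grouped by their titles. The deposited gated files give RPKM per RefSeq transcript; no header or label names this unit, which was inferred from the values, since multiplied by length in kb they add up to 1015063 to 1034289 per library, and FPKM cannot be told apart from it. The deposited WT HSC files give a signal per gene symbol that behaves as reads divided by 1 size factor per library: 100% of values became whole reads within 0.01, and these were expressed as CPM. STAR, DESeq2 and mm10 are named, without versions or roles, per the submitters' processing notes; the counting software is not given in the sources used here. The labels give no batch.

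Transcripts were matched to symbols of NCBI's GRCm38.p6 table by RefSeq identifier (32259), by symbol (1331) or kept as named (394). GENCODE M21 transcripts under the same identifier gave length and GC content. The groups were tested in R 4.3.3 by limma 3.58.1 (lmFit and trended eBayes) on log2(RPKM + 1) for genes reaching 1 RPKM in 3 or more libraries, with group as the only term; differences on this scale understate the change of low genes. Pair ratios used two-sided exact permutation tests. Scaling alternatives used edgeR 4.0.16 for TMM. Tables were prepared with Python 3.11.15. The limma step, tested on simulated data for 10619 genes, recovered 50% of changes of log2 size 1 and 98% of size 2 among 200 changed genes. Of its 154 calls, 6 were false. Far more genes, 2902, were called in the data, and the simulated noise was normal with a spread set by mean level. The simulated shares need not hold for the data.

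The members, substrate classes, lists, pairs and alternatives were chosen with earlier results of these data known. Values in every library were given to called members, members of the 6 pairs and the 10 carriers with the highest mean. The values of 1 tested carrier are not reported here, though it is in all counts. Strand is not kept by Smart-seq2: 14 carriers share part of their span with another annotated gene, 7 of them with a protein-coding one (among them Slc25a11 with Rnf167 and Slc25a25 with Naif1), and reads there cannot be told apart.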

Additional observations from a re-analysis of the deposited data

Results flagged for a closer look

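For 36 carriers in FSC-A High and 34 in WT HSC, each group of 4 libraries was examined, and in 8 cases 1 library lay far from the other three by Dixon's criterion, which chance meets in about 1 of 20. In FSC-A High, Slc25a17 stood at 82.0 RPKM in library 4 against 42.1 to 45.9 in the others, and Slc25a24 at 17.1 RPKM in library 1 against 6.10 to 7.56. In WT HSC 4, Slc25a16 stood at 41.9 CPM against 8.38 to 9.997 in the others, Slc25a23 at 25.5 CPM against 9.45 to 11.5 and Slc25a30 at 12.5 CPM against 3.80 to 4.50. In WT HSC 1, Slc25a45 stood at 164 CPM against 85.2 to 91.7, and Slc25a1 at 153 CPM against 204 to 205. In WT HSC 3, Slc25a37 stood at 19.3 CPM against 13.3 to 14.1.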

How the results depend on the processing

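The count of 3 higher carriers became 1 under library-total scaling, which moved the median of all genes to -0.30 from -0.04, and 1 at an adjusted p below 0.01; without 1 library each it ran from 1 (without FSC-A High 3) to 4. The count of 6 lower carriers became 3 without a filter and 3 at an adjusted p below 0.01, and without 1 library each it ran from 4 to 8. The split of 3 higher and 6 lower became 1 and 8 under library-total scaling (30.1% of all called genes higher, against 57.1%) and 4 and 5 with median ratio or upper quartile scaling. The median over the carriers was -0.40 with library totals, -0.086 with a pseudocount of 5, -0.047 after removal of the length and GC trend and -0.089 to -0.23 without 1 library each, against -0.18. Slc25a1, Slc25a33 and Slc25a45 passed in all alternatives run. Directions of carriers that had not passed turned with the scale or trend: Slc25a4 was -0.21 with the expression level trend removed; Slc25a11 was -0.10 with library totals, -0.026 after removal of the length and GC trend and -0.13 with the expression level trend removed; Slc25a13 was 0.032, Slc25a28 -5.93e-04 and Slc25a37 0.13 after removal of the length and GC trend; Slc25a24 was -0.12 and Slc25a28 -0.26 with library totals; Slc25a20 was 0.0095 with median ratio and 0.035 with upper quartile scaling. Without 1 library each, Slc25a20 ran from -0.13 to 0.19, Slc25a24 from -0.14 to 0.31, Slc25a28 from -0.17 to 0.28 and Slc25a37 from -0.45 to 0.089. The ratio of Slc25a37 to Slc25a28 was 0.14 after removal of the length and GC trend, against -0.21. With 1 library left out, the pair ratios cannot reach 0.05. The causes were not tested. With the replicate block, 3 carriers were higher and 5 lower. Slc25a39 (-0.31, limma adjusted p = 0.0829) and Slc25a41 (1.098, 0.112) no longer passed and Slc25a4 did (0.40, 0.0264). FSC-A High 4 has no FSC-A Low library of its number, so the block takes it out of the comparison. The log2 differences equal those without FSC-A High 4, where the calls of these carriers changed alike (adjusted p = 0.0928, 0.123 and 0.04999). Same-numbered libraries correlated at -0.031, 0.059 and 0 in their deviations from the group means. Libraries did not all correlate best with their own number. The labels do not say whether the numbers pair libraries, and these values cannot settle it. The 9 carriers below the filter were not part of the main fit. Without a filter 45 carriers were tested, all but Slc25a21 and Slc25a54. Slc25a5 and Slc25a3 were then called higher and Slc25a1, Slc25a33 and Slc25a45 lower, so none of the 9 passed.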
